A study of Mus musculus with 9 samples.

Results

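The caput epididymides of mice without the receptor tyrosine kinase ROS1 (Ros1-/-) were compared with those of mice heterozygous for the Nicol null allele (Nicol+/-), gene by gene. A gene was included where its deposited RPKM value (reads scaled to transcript length and library depth) reached 1 in at least 3 of the 6 libraries compared, which 13250 of the 24346 genes in the table did. The series holds single-ended mRNA-seq of the caput epididymis, dissected with the initial segment attached, from 14-week-old males. It has 3 libraries for each of 3 genotypes, written in the labels as Nicole+/-, Nicole-/- and Ros1-/-, and no agent was given to these mice. The Nicol allele (Gm1673 em1) was made in mice of a B6D2F1 background and lacks the whole coding sequence. The Ros1-/- mice came from an existing line, and no source used here gives its strain or allele. The series lists no Ros1 heterozygote or wild type, so the controls are from another line and themselves carry 1 deleted Nicol allele. Effects of the Ros1 deletion, of the line and of the controls' heterozygosity cannot be told apart in this comparison. Both deletions are carried by the whole animal, and nothing in the labels says whether the 3 libraries of a group came from separate males, so p-values cover only the spread among these samples, which may be technical.

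The epididymis is a long coiled duct in which spermatozoa leaving the testis become motile and able to fertilise. Its first stretch, the initial segment, forms before puberty under the control of proteins that the testis secretes into the lumen, a route called lumicrine signalling. NELL2 and NICOL, encoded by Nell2 and by Gm1673, are such luminal proteins, and ROS1 on the principal cells of the duct is the receptor on which they act. ROS1 signals through the RAS and ERK kinase cascade, whose targets include the ETS transcription factors ETV1, ETV4 and ETV5. The phosphatase PTPN6 (SHP-1) restrains ROS1. In mice lacking the pathway the initial segment does not differentiate and males are infertile.

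Low values of the deposited normalized counts fell on whole steps, the size of 1 read, from which 8189631 to 16595565 reads per library were estimated, with Nicol+/- replicate 1 the shallowest of the 6. Libraries of a group correlated with each other at 0.973 to 0.983 in Nicol+/- and at 0.979 to 0.991 in Ros1-/- (Pearson, log2 scale, across genes). The ribosomal RNA precursor Rn45s took 0.328% to 0.658% of the normalized counts in Nicol+/- but 2.65%, 3.52% and 9.22% in Ros1-/- replicates 1, 2 and 3. Every Ros1-/- library thus held more ribosomal RNA than any control, replicate 3 most of all, and its part in the results was not tested.

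The targeted gene was examined first. Ros1 (chr10:52044863-52195398, mm10) measured 40.7, 41.9 and 48 RPKM in the 3 Nicol+/- libraries and 8.06, 8.24 and 9.32 RPKM in the 3 Ros1-/- libraries. The groups did not overlap, and Ros1 fell by 2.22 ± 0.13 on the log2(RPKM + 1) scale (SE, n = 3 per group, limma adjusted p = 5.55e-06). Reads were therefore still assigned to the gene in the knockout, and which exons they covered cannot be read from gene-level values. In Nicol-/- mice, whose Ros1 gene was not edited, Ros1 measured 19, 24.7 and 16.8 RPKM, above every Ros1-/- library and below every Nicol+/- library.

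Gm1673, which encodes NICOL, measured 8.69, 9.09 and 6.05 RPKM in the controls and 19.6, 16.8 and 16.6 RPKM in Ros1-/-, a log2 difference of 1.07 ± 0.14 (limma adjusted p = 0.000744). The controls carry 1 deleted copy of this gene, and the part of that in the difference was not tested. Gm1673 was listed at 0 in the 3 Nicol-/- libraries, as the deletion requires. Nell2 stayed below 0.4 RPKM in every library and was not tested. Ptpn6 measured 12.6, 14.9 and 12.2 RPKM in the controls and 14, 15 and 11.8 RPKM in Ros1-/-, overlapping ranges with a log2 difference of 0.03 ± 0.12 (limma adjusted p = 0.861).

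The chromosome around each edited gene held further differences. Within 5 Mb of Ros1, 14 genes were tested, of which 5 were called lower and 2 higher, or 50%. Across all genes 23.7% were called, and within 10 Mb of Ros1 the share was 20.6% of 68 genes. Gopc, a Golgi protein needed for forming the acrosome, is the neighbour with the smallest p. It measured 59.9, 61.2 and 84.7 RPKM in the controls and 11.8, 11.7 and 12.1 RPKM in Ros1-/- (chr10:52337024-52382124). Its log2 change of -2.41 ± 0.12 (limma adjusted p = 1.78e-06) was about that of Ros1 itself. Gopc stood at 11.1, 11.3 and 11.7 RPKM in Nicol-/-, whose edited gene lies on another chromosome, and the difference between the knockouts was 0.06 ± 0.12 (limma adjusted p = 0.861). Gja1, a connexin of gap junctions that also lies near Ros1, fell by 1.13 ± 0.10, and Dcbld1 fell by 0.56 ± 0.13, while Msl3l2 rose by 0.65 ± 0.13. None of the 14 genes near Ros1 differed between the knockouts at the threshold.

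Within 5 Mb of Gm1673, 110 genes were tested and 26.4% were called, a share close to that of all genes. Hgfac, a secreted protease that activates hepatocyte growth factor, measured 47.2, 51.1 and 67.3 RPKM in the controls and 1.92, 1.52 and 0.629 RPKM in Ros1-/-. It was the most reduced of the 3 neighbours named here, by 4.60 ± 0.27 on the log2 scale (limma adjusted p = 4.86e-06). Sh3tc1 fell by 1.68 ± 0.17, and Lrpap1, a chaperone of lipoprotein receptors, fell by 0.80 ± 0.09.

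Of the 13250 genes, 1818 were called lower in Ros1-/- (13.7%) and 1316 higher (9.93%) at a limma adjusted p under 0.05. The falls were the larger changes. Among genes called lower, 471 fell by more than 1 on the log2 scale, 173 by more than 2, 82 by more than 3 and 26 by more than 5. Among genes called higher, 161 rose by more than 1, 13 by more than 2, 6 by more than 3 and 0 by more than 5. The median change was -0.61 for genes called lower and 0.55 for genes called higher, against 0.01 for all genes tested. All 3 Ros1-/- libraries lay below all 3 Nicol+/- libraries for 3221 genes (24.3%) and above them for 2984 genes (22.5%).

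The filter itself fixed some directions. It was met by 183 genes through Nicol+/- libraries alone, of which 163 were called lower, and by 104 genes through Ros1-/- libraries alone, of which 56 were called higher. Lcn9, Adam28, Etv4, 9230110F15Rik, Mir6244, Sh3tc1, Gper1, Vip and Krt17 were among the first set. Tac2, 5730457N03Rik and Spdef were among the second set. The filter fixed the directions of these genes, so their calls give no support beyond the levels themselves. At the edge of the filter, Tulp2 was kept with a deciding value of 1.00072 RPKM and Kif1a was left out at 0.999997 RPKM. Counts of calls moved with single libraries. Genes called lower numbered 1142 without Nicol+/- replicate 3 and 1118 without Ros1-/- replicate 1. Genes called higher numbered 664 without Nicol+/- replicate 3 and 583, 756 and 836 without Ros1-/- replicates 1, 2 and 3. With no single library decisive, 1044 genes stayed called lower and 502 called higher.

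**Figure D1:**
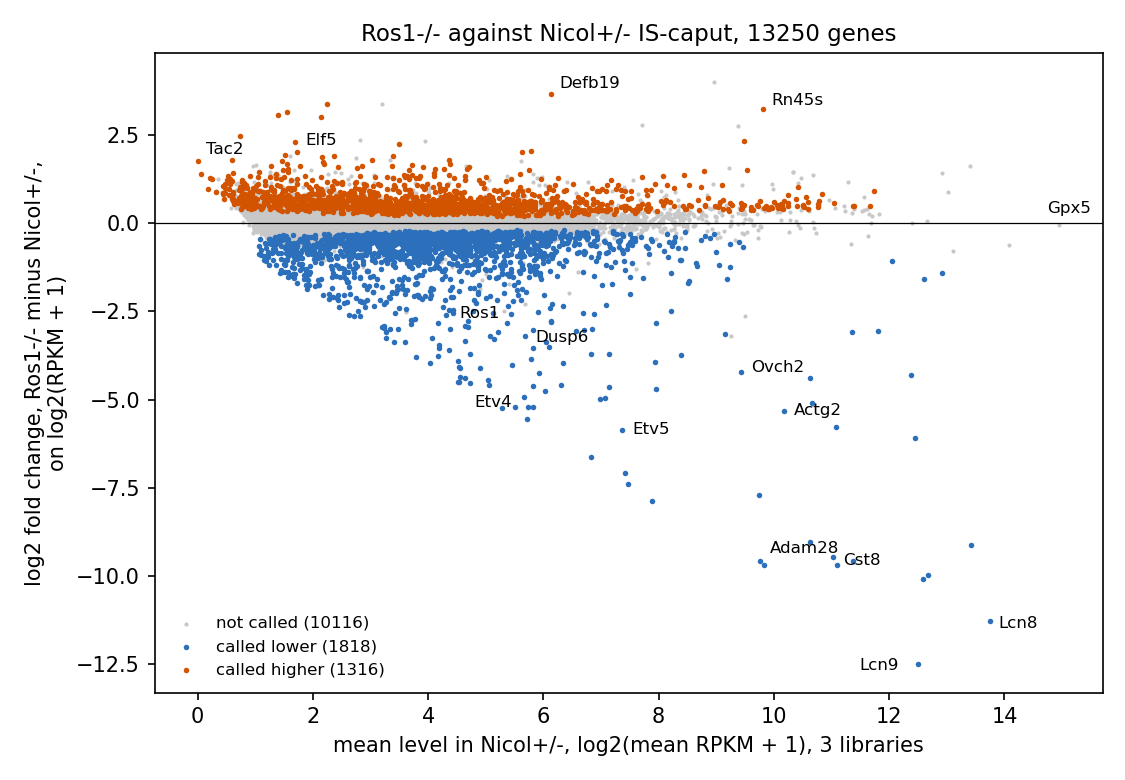
Each point is 1 of the 13250 genes tested, placed by its mean level in Nicol+/- (x axis, log2(mean RPKM + 1), 3 libraries) and by its log2 fold change in Ros1-/- (y axis, on log2(RPKM + 1)), with genes called lower or higher in colour. Genes that were abundant in Nicol+/- and nearly lost in Ros1-/- form the lower right edge, and no gene called higher rose by more than 5.

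In the plot of fold change by level, the lower right edge holds abundant genes that were nearly lost. Lcn8 and Lcn9 encode lipocalins, small secreted carriers of lipophilic molecules. Lcn8 was among the 6 most abundant genes of the controls, at 10553, 13223 and 17504 RPKM, and measured 4.58, 5.53 and 3.34 RPKM in Ros1-/-, a log2 change of -11.28 ± 0.32 (log2, limma adjusted p = 8.33e-08). Lcn9 measured 5026, 5153 and 7136 RPKM in Nicol+/- and was listed at 0 in the 3 knockout libraries, with no estimated read against 26946, 52811 and 68743 reads in the controls. Both genes went from the most abundant class of transcripts to near or at the bottom of the scale.

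Adam28, a membrane-anchored metalloprotease, measured 728, 702 and 1158 RPKM in the controls and 0.0515, 0.122 and 0.135 RPKM in Ros1-/-, a log2 change of -9.58 ± 0.17 (limma adjusted p = 2.84e-09). Rnase10, a member of the RNase A family secreted by the initial segment, measured 1628, 1746 and 3216 RPKM against 1.68, 1.84 and 1.12 RPKM. The beta-defensin Defb48 measured 4040.1, 6780.4 and 8876 RPKM against 4.76, 7.37 and 3.96 RPKM. For each of these genes the lowest control library stood far above the highest Ros1-/- library. Defb25, also a beta-defensin, kept more, with 32.5, 17.2 and 10.9 RPKM in Ros1-/- against 8674, 11004 and 13154 RPKM in Nicol+/-.

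Several of the genes that fell most lie side by side. Cst11, Cst12, Cst8 and 9230104L09Rik occupy chr2:148768618-148850962. The first 3 are cystatins, relatives of cysteine protease inhibitors. Cst12 measured 2148, 2099.8 and 3675 RPKM in the controls and 2.14, 2.17 and 2.76 RPKM in Ros1-/-. Cst8, also called CRES, measured 1812, 2153 and 2252 RPKM against 1.98, 1.74 and 2.06 RPKM. Next to them, 9230104L09Rik measured 6042, 5689 and 6719 RPKM against 5.68, 3.83 and 4.74 RPKM. Cst11 kept more than these neighbours, at 334, 192 and 291 RPKM against 3959.9, 5439.7 and 6655 RPKM. The other large falls were those of 9230110F15Rik, by 9.68 ± 0.89, and of Gm4846, by 9.05 ± 1.03, on the log2 scale.

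The smallest adjusted p of all belonged to a gene with almost no reads. Mir6244 (chr9:52115623-52115739), a microRNA precursor, was listed at 223, 233 and 248 RPKM in Nicol+/- and at 0 in the 6 knockout libraries (limma adjusted p = 3.23e-11). Because the feature is so short, the RPKM values of the 3 control libraries stood for only 1, 2 and 2 reads. Each of these is under the 3 reads that a count of 0 allows, so a difference in Mir6244 was not detectable at this depth. In total 64 of the tested genes had fewer than 10 estimated reads in each of the 6 libraries, of which 3 were called lower and 6 higher.

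Sequence before the start site is shown for 4 of the genes that fell most, secreted products of 3 families that were nearly lost together. RefSeq promoters on GRCm38.p6, which has the coordinates of mm10, were matched to 10546 of the 13250 genes tested. The 100 bases before each start are given 5′ to 3′ on the gene's strand, with matches to the steroid receptor half-site TGTTCT or its reverse complement in capitals. Lcn8 is from chr2:25653018-25653117 and Lcn9 from chr2:25823053-25823152, both on the plus strand. Rnase10 is from chr14:51007651-51007750 on the plus strand and Defb48 from chr14:62984511-62984610 on the minus strand.
Lcn8: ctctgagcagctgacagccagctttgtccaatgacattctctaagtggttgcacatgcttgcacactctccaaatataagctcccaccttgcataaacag
Lcn9: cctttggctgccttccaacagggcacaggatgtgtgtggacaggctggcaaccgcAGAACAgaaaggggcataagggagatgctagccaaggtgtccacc
Rnase10: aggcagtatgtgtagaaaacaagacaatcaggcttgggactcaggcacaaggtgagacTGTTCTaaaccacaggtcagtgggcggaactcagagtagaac
Defb48: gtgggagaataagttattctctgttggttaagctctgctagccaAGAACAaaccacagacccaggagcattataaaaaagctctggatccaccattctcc

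The capitals lie 45 to 40 bases before the start in Lcn9, 42 to 37 bases before it in Rnase10 and 56 to 51 bases before it in Defb48, and these letters are not in the Lcn8 window. The Lcn9 gene itself is annotated at chr2:25823088-25825546. Part of its window, with the capitals, therefore lies inside the annotated gene, and the 2 annotations of its start differ. Over 300-base windows that run from 250 bases before to 50 bases after the start, TGTTCT on either strand was present at 15% of the tested genes and at 14.4% of those called lower. Its share was 22.7% among genes that fell by more than 1, 29.1% among those that fell by more than 2 and 34.4% among the 61 with a promoter that fell by more than 3. The ETS motif CCGGAAG went the other way, with 19.4% of tested genes, 15.6% of those called lower, and 7.76%, 6.3% and 4.92% in the same order. The AP-1 motif TGANTCA had 6.15% of tested genes, 8.13% of those called lower, and 9.7%, 8.66% and 6.56%. Across all 27025 promoters in the table, tested or not, the shares were 21.3% for TGTTCT, 9.93% for CCGGAAG and 8.97% for TGANTCA. Among the shares over all tested genes, that of the ETS motif alone stood above the wider set. The TGTTCT shares of genes that fell by more than 1, 2 and 3 also lay above its 21.3%. A match describes the letters present and is neither a binding site nor a cause.

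Genes of the initial segment were assembled as a list of 20, all of which passed the filter. In Ros1-/-, 15 were called lower and 1 higher, and the median change was -5.08 against 0.01 for all genes. Leaving out any 1 library gave 15 or 16 called lower. Those called lower include Ros1, the targeted gene. They also include Lcn9, Adam28 and Etv4, whose directions the filter fixed, so these calls give no support to the count. The members were chosen with earlier results of these data known. Over all genes tested 13.7% were called lower and 9.93% higher, and the counts of each list below are to be read beside these shares. Besides the genes above, Ovch2, a secreted protease of the ovochymase family, fell from 578, 626 and 847 RPKM to 34.6, 34.9 and 36 RPKM, a log2 change of -4.22 ± 0.14 (limma adjusted p = 1.9e-07). Enpp2 (autotaxin), which makes lysophosphatidic acid, fell from 127, 117 and 154 RPKM to 3.33, 3.3 and 3.21 RPKM. Ovch2 and Enpp2 were thus not lost but held at a low, even level. The exception was Ggt1, a gamma-glutamyl transferase, which measured 136, 152 and 82.5 RPKM in the controls and 215, 236 and 228 RPKM in Ros1-/- and rose by 0.92 ± 0.20.

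The caput beyond the initial segment changed less as a whole. Of 23 genes of that list in the table, all tested, 5 were called lower and 1 higher, with a median change of 0.06. The shares over all genes were 13.7% lower and 9.93% higher. Gpx5, the caput glutathione peroxidase that marks the labelled tissue, was the most abundant transcript of the controls. It measured 23430.1, 34999.7 and 36736 RPKM in the controls and 32186, 25418 and 32589 RPKM in Ros1-/-, overlapping ranges with a log2 difference of -0.06 ± 0.29 (limma adjusted p = 0.9). Mfge8, a secreted glycoprotein that binds the sperm surface, fell from 3207, 2987 and 4524 RPKM to 452, 498 and 328 RPKM. Defb20 fell by 1.41 ± 0.19. Crisp1, a cysteine-rich protein deposited on spermatozoa, measured 186, 163 and 393 RPKM against 5.16, 30.6 and 2.51 RPKM, so that Ros1-/- replicate 2 kept more of it than the other two. Ces5a, a secreted carboxylesterase, rose by 1.03 ± 0.21. Among the most abundant control transcripts, Spag11b and Defb18 were lower by 0.63 ± 0.28 and 0.80 ± 0.47, and neither difference passed the test. Mir703, listed at 1336, 16779.8 and 14504 RPKM in Nicol+/-, rested on 2, 48 and 39 reads and is not interpreted.

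ERK targets and feedback regulators had more calls than the other signalling lists examined. Of 31 listed genes 28 were tested, and 17 were called lower and 1 higher with a median change of -1.46. Without any 1 library the number called lower lay between 16 and 22. Etv5 fell from 148, 149.7 and 195 RPKM to 1.92, 2.01 and 1.49 RPKM, a log2 change of -5.87 ± 0.21 (limma adjusted p = 2.57e-07). Etv4 fell from 46.9, 54.9 and 64 RPKM to 0.731, 0.709 and 0.172 RPKM, a log2 change of -5.21 ± 0.17 (limma adjusted p = 1.96e-07). Etv4 passed the filter through its Nicol+/- libraries alone, which fixed its direction. Etv1 kept more, with 13.6, 10.5 and 14.9 RPKM against 2.02, 2.61 and 2.44 RPKM, a log2 change of -2.05 ± 0.16 (limma adjusted p = 2.9e-05).

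Several negative regulators that ERK induces were among the genes called lower, while Dusp1 (-0.997 ± 0.62), Dusp2 (0.28 ± 0.19) and Il17rd (0.33 ± 0.11) of the same list did not pass the test. Dusp6, a phosphatase of ERK, measured 43.9, 43.8 and 62.3 RPKM against 4.4, 4.53 and 4.63 RPKM. Spry1, a Sprouty inhibitor of receptor signalling, measured 46.4, 44.3 and 55.2 RPKM against 12, 14.1 and 11.4 RPKM. Phlda1 fell by 1.50 ± 0.11. Ccnd1 (cyclin D1) fell from 42.1, 42.7 and 56.1 RPKM to 17.1, 18.1 and 15 RPKM. For these genes the 3 Ros1-/- libraries differed from each other by far less than the gap to the controls.

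Immediate early genes varied more between libraries. Egr1 measured 37.4, 46.1 and 94.2 RPKM in the controls and 6.12, 4.62 and 21.6 RPKM in Ros1-/-, a log2 change of -2.52 ± 0.69 (limma adjusted p = 0.0291). That call was lost on leaving out replicate 2 or 3 of the controls or replicate 1 or 2 of Ros1-/-, and Egr1 stood at 25.6, 44.8 and 154 RPKM in Nicol-/-. Fosl2, a FOS-related factor and the gene called against the list's direction, measured 11.6, 11.9 and 7.74 RPKM against 16.2, 16.8 and 16.4 RPKM. Its rise of 0.64 ± 0.18 was lost as a call without Nicol+/- replicate 3 or any 1 Ros1-/- replicate.

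The kinases of the cascade differed little. Of 20 RAS and ERK core components, all tested, 4 were called lower and 0 higher by limma, and the median was -0.08. Among all genes 13.7% were called lower and 9.93% higher. Rasa1, a RAS GTPase-activating protein, fell most, from 28.6, 22.5 and 33.7 RPKM to 10.4, 10.1 and 10.9 RPKM. The adaptor Shc1 fell by 0.53 ± 0.08 and Map2k1 (MEK1) by 0.30 ± 0.07. The Map2k1 call was lost without Ros1-/- replicate 1, where 2 of the list were called lower.

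Some other receptor tyrosine kinases were lower too. Of 24 listed receptors 23 were tested, 7 were called lower and 1 higher, and leaving out any 1 library gave 7 or 8 lower. Igf1r, the receptor of insulin-like growth factor, measured 22.3, 22.2 and 32.1 RPKM in the controls and 5.96, 6.76 and 6.21 RPKM in Ros1-/-, a log2 change of -1.84 ± 0.15. Met, the receptor of hepatocyte growth factor, measured 5.37, 5.71 and 5.56 RPKM against 1.07, 1.25 and 1.45 RPKM. Its ligand's activator Hgfac was among the large falls given above. Pdgfra, which marks fibroblasts, fell by 1.52 ± 0.12 and Fgfr1 by 0.69 ± 0.09. Erbb2 was called higher, by 0.43 ± 0.10, but not without Nicol+/- replicate 3 or Ros1-/- replicate 1.

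**Figure D2:**
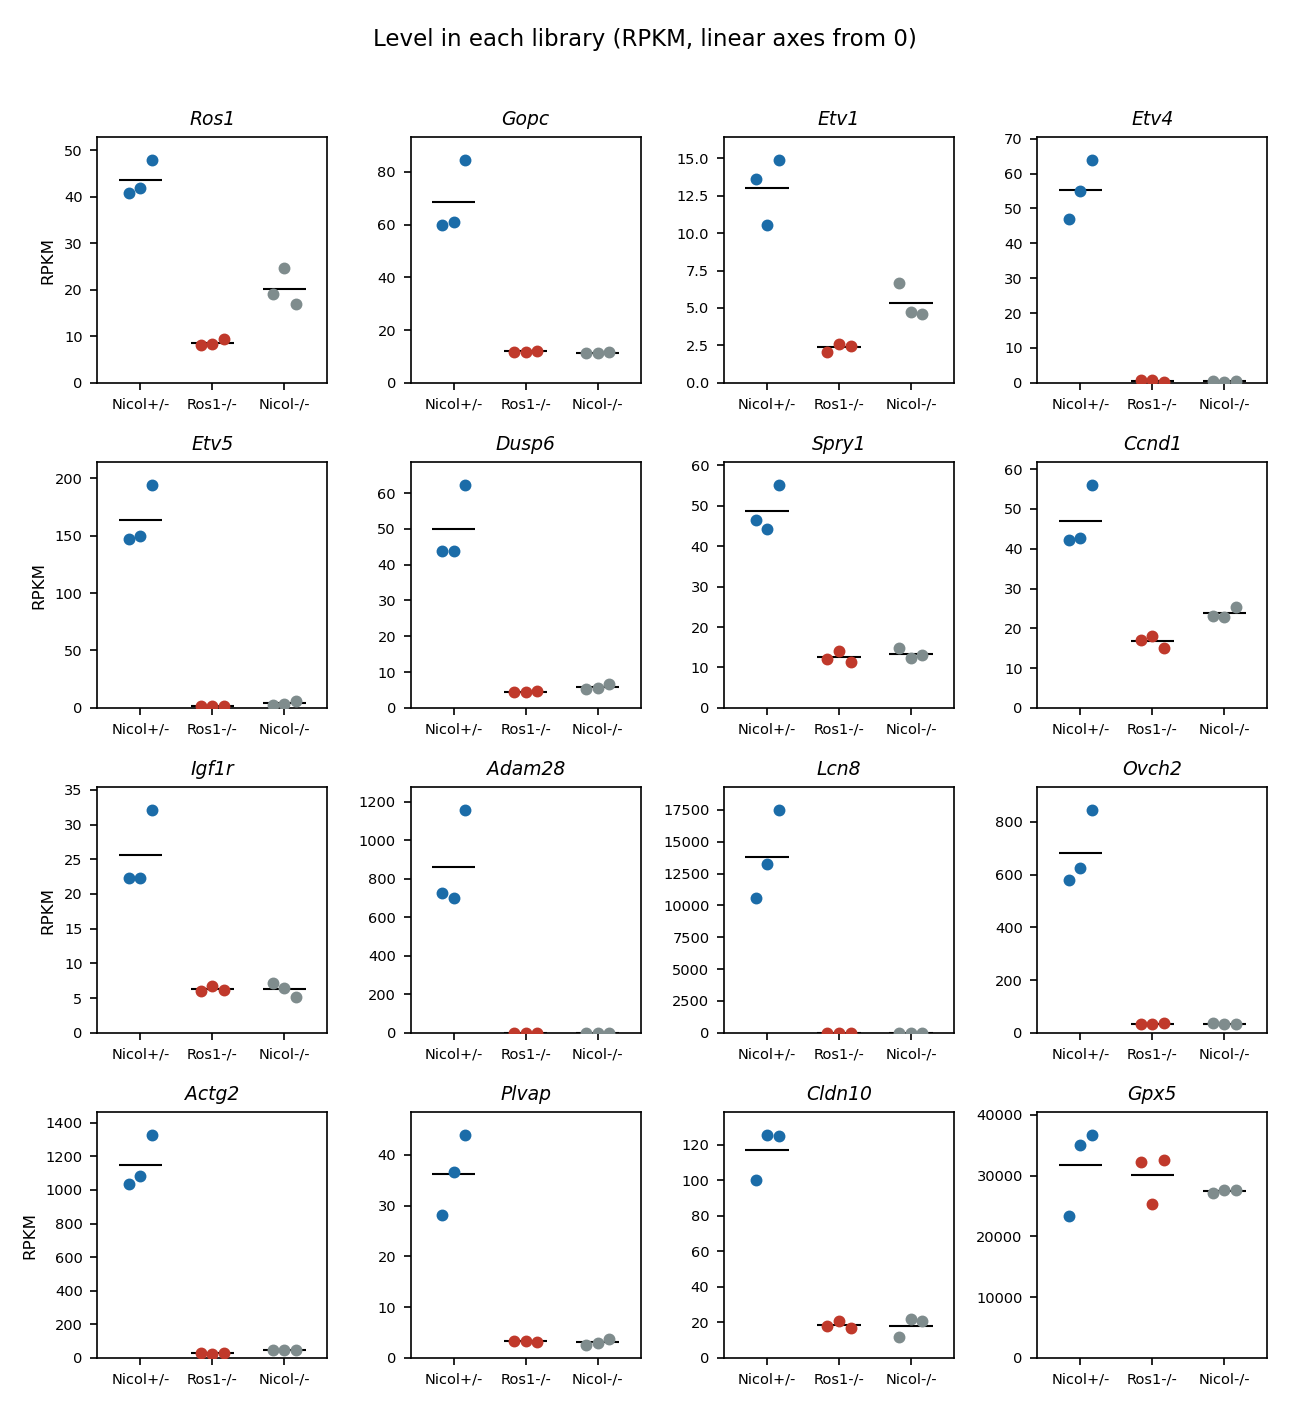
RPKM of 16 genes in each library (y axes, RPKM), by genotype (x axis: Nicol+/-, Ros1-/- and Nicol-/-, 3 libraries each), with points for libraries and a line at the mean. Etv4, Etv5, Adam28 and Lcn8 lie near 0 in both knockouts, Etv1 lies lower in Ros1-/- than in Nicol-/-, and the ranges of Gpx5 overlap.

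The plot of levels in each library holds the ETS genes Etv1, Etv4 and Etv5, which were all called lower. Other members of the ETS family, not in that plot, split in direction. Of 24 ETS and epithelial transcription factors 21 were tested, 6 were called lower and 4 higher. Besides the ETV genes, the ETS repressor Erf fell from 31.7, 36.9 and 44.8 RPKM to 14.8, 13.6 and 15.5 RPKM, and Ets1 fell by 0.60 ± 0.10. Elf5, Elf3 and Spdef, factors of epithelial cells, were among those called higher. Elf5 measured 1.75, 3.09 and 2.04 RPKM in the controls and 13.3, 10.6 and 12.8 RPKM in Ros1-/-, a rise of 2.02 ± 0.15 (limma adjusted p = 2.42e-05). Elf3 rose from 114, 149.7 and 120.2 RPKM to 237, 217 and 299 RPKM, and Spdef from 0.145, 0.492 and 0.765 RPKM to 2.13, 2.44 and 2.72 RPKM. Spdef passed the filter through its Ros1-/- libraries alone, which fixed its direction.

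Of 20 lipocalin genes 17 were in the table and 10 were tested, of which 4 were called lower and 1 higher. Lcn10 fell from 1356, 1482 and 1872 RPKM to 63.3, 39.9 and 151 RPKM. Lcn2, an iron-siderophore carrier, fell from 5399, 6054 and 7283 RPKM to 2178, 1939 and 2114 RPKM, a log2 change of -1.58 ± 0.16. Apod (apolipoprotein D) rose by 0.91 ± 0.21, a call lost without Nicol+/- replicate 3 or Ros1-/- replicate 1 or 3. All 3 cystatins called, of 5 tested, were lower, and they were the cystatins of the chromosome 2 group described above.

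In the RNase A family Rnase10 was the member called lower of 9 tested, and 2 were called higher. Over all genes the shares were 13.7% lower and 9.93% higher, and counts so small do not set the family apart. Rnase13 measured 486, 571 and 269 RPKM in the controls and 1194, 1143 and 1173 RPKM in Ros1-/-, a rise of 1.47 ± 0.27. Rnase6 rose by 1.32 ± 0.34, a call that was lost on leaving out replicate 1 or 3 of the controls or any replicate of Ros1-/-. Rnase10 and Rnase13, both on chromosome 14, thus went in opposite directions.

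Beta-defensins, small antimicrobial peptides that also coat spermatozoa, had 30 of 43 listed members tested, with 5 called lower, 3 higher and a median change of 0.04. These counts were near the shares of all genes called, 13.7% lower and 9.93% higher. Defb47, adjacent to Defb48, fell from 5420.3, 5390.4 and 6010.1 RPKM to 79.7, 103 and 64.2 RPKM. Defb19 went the other way, from 110.3, 73.3 and 24.2 RPKM to 1045, 745 and 521 RPKM, a rise of 3.64 ± 0.55 (limma adjusted p = 0.00171), and it headed the rises among genes with a mean of at least 5 RPKM in either group. Defb19 (chr2:152576086-152580312) and Defb25 (chr2:152622356-152623053) lie near each other and changed in opposite directions. Defb35 and Defb12 rose by 0.79 ± 0.23 and 1.07 ± 0.31. Both of those calls were lost without Nicol+/- replicate 3 or Ros1-/- replicate 1 or 2, and that of Defb12 also without Ros1-/- replicate 3.

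Among 24 proteases tested of 26 listed, 7 were called lower and 2 higher, and the lower count was 7 in each fit without 1 library. Ovch2, Hgfac and Adam28, whose values are given above, were among those called lower, and the filter fixed the direction of Adam28. Dpp4, a dipeptidyl peptidase, rose by 0.57 ± 0.10, and Tmprss2 rose by 0.64 ± 0.15, a call lost without Ros1-/- replicate 1. Protease inhibitors of the Kazal, WAP and serpin families had 2 called lower and 6 higher of 28 tested. Spink5 rose from 202, 276 and 222 RPKM to 463, 495 and 379.8 RPKM, and Wfdc6b from 152, 155 and 103 RPKM to 291, 297 and 269.6 RPKM. Spint3 fell from 9.26, 9.87 and 8.98 RPKM to 1.33, 2.7 and 1.08 RPKM. The number of inhibitors called higher was 3 without Nicol+/- replicate 3, and it was 2 and 3 without Ros1-/- replicates 1 and 2.

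Principal cells set the ionic and amino acid content of the lumen. Of 24 solute and amino acid transporters 21 were tested, 8 were called lower and 3 higher. Slc1a1, a glutamate transporter, fell from 195, 215 and 323 RPKM to 14.6, 8.49 and 24.5 RPKM, a log2 change of -3.94 ± 0.33 (limma adjusted p = 4.7e-05). The amino acid exchangers Slc7a8 and Slc7a5 fell by 1.13 ± 0.13 and 0.82 ± 0.12, while the lactate carrier Slc16a1 and the phosphate transporter Slc34a2 rose by 0.85 ± 0.12 and 1.06 ± 0.19. The number called lower was 5 without Nicol+/- replicate 1 or 3 or without Ros1-/- replicate 1.

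Genes of luminal acidification and bicarbonate had 17 of 21 listed members tested, with 5 called lower and 3 higher. Cftr, the chloride and bicarbonate channel, fell from 8.38, 9.04 and 12.8 RPKM to 1.61, 1.94 and 2.41 RPKM, a log2 change of -1.87 ± 0.17. The sodium-bicarbonate cotransporter Slc4a4 fell by 1.47 ± 0.16 and the proton pump subunit Atp6v0d2 by 0.76 ± 0.10. Car12, a carbonic anhydrase, rose by 0.71 ± 0.14, and Foxi1, the transcription factor of proton-secreting cells, rose by 0.52 ± 0.12. The Foxi1 call was lost without Ros1-/- replicate 1, where the higher count was 1.

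Of 20 genes of the tight junctions that form the blood-epididymis barrier 19 were tested, and 7 were called lower and 2 higher. Cldn10 changed most, from 100.5, 126 and 125 RPKM to 17.9, 20.9 and 17.1 RPKM, a log2 change of -2.58 ± 0.20 (limma adjusted p = 3.36e-05). Cldn4 and Cldn1 fell by 0.95 ± 0.12 and 1.02 ± 0.14, and Cdh1 (E-cadherin) by 0.50 ± 0.09. The changes in claudins were therefore uneven. Cldn3 measured 220.4, 245 and 192 RPKM against 282, 279 and 306 RPKM, and its call as higher was lost without Nicol+/- replicate 3 or Ros1-/- replicate 1 or 3.

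In cholesterol synthesis and uptake 10 of 25 tested genes were called lower and 0 higher by limma (27 were listed, median -0.27). Dhcr7, which makes cholesterol from its last precursor, fell from 7.48, 6.32 and 9.99 RPKM to 1.02, 0.93 and 0.913 RPKM. Lss (lanosterol synthase) fell by 1.05 ± 0.12 and the exporter Abcg1 by 0.81 ± 0.10. The count of the list was 6 without Nicol+/- replicate 3 or without Ros1-/- replicate 1 or 3.

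Glutathione and antioxidant genes were called in both directions, 6 lower and 11 higher of 36 tested. Ggt7 fell from 25.3, 32.4 and 45.4 RPKM to 2.88, 2.45 and 2.32 RPKM, a log2 change of -3.28 ± 0.18, while the related Ggt1 rose. Txn1 (thioredoxin) and Prdx1 fell by 0.73 ± 0.08 and 0.47 ± 0.08, and Srxn1 (sulfiredoxin) and the glutathione transferase Gsto1 rose by 0.60 ± 0.10 and 1.15 ± 0.22. The higher count was 5 without Nicol+/- replicate 3 or Ros1-/- replicate 1 and 7 without Ros1-/- replicate 2.

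Among genes of androgen and steroid action 13 of 18 were tested, with 3 called lower and 1 higher. Beside the shares over all genes, 13.7% and 9.93%, counts so small do not set the list apart. Srd5a1, the reductase that makes dihydrotestosterone and a known gene of the initial segment, fell from 11.2, 10.7 and 18.1 RPKM to 2.69, 2 and 2.24 RPKM. Gper1, a membrane oestrogen receptor, fell from 6.7, 7.94 and 10.5 RPKM to 0.929, 0.912 and 0.836 RPKM.

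Growth factors and peptides were mixed. Of 25 TGF-beta and BMP genes 21 were tested and 7 were called lower and 1 higher, with 5 to 8 lower without any 1 library. Bmp7 fell from 21, 25.6 and 33.2 RPKM to 3.96, 3.63 and 3.83 RPKM, a log2 change of -2.50 ± 0.16 (limma adjusted p = 8.22e-06). Inhbb, the activin B subunit, fell from 24.6, 27.1 and 32.5 RPKM to 5.85, 6.13 and 6.37 RPKM. Id2, a target of BMP signals, rose by 0.48 ± 0.10. Of 36 secreted peptides and signalling molecules 23 were tested, 6 were called lower and 3 higher. Vip, the vasoactive intestinal peptide precursor, fell from 6.21, 3.44 and 15 RPKM to 0.0984, 0.0498 and 0 RPKM, and Hbegf, a ligand of the EGF receptor, by 1.43 ± 0.21. Penk (proenkephalin) rose from 78.8, 57.2 and 66.5 RPKM to 117, 119 and 159 RPKM, and Egf rose by 0.96 ± 0.21.

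**Figure D3:**
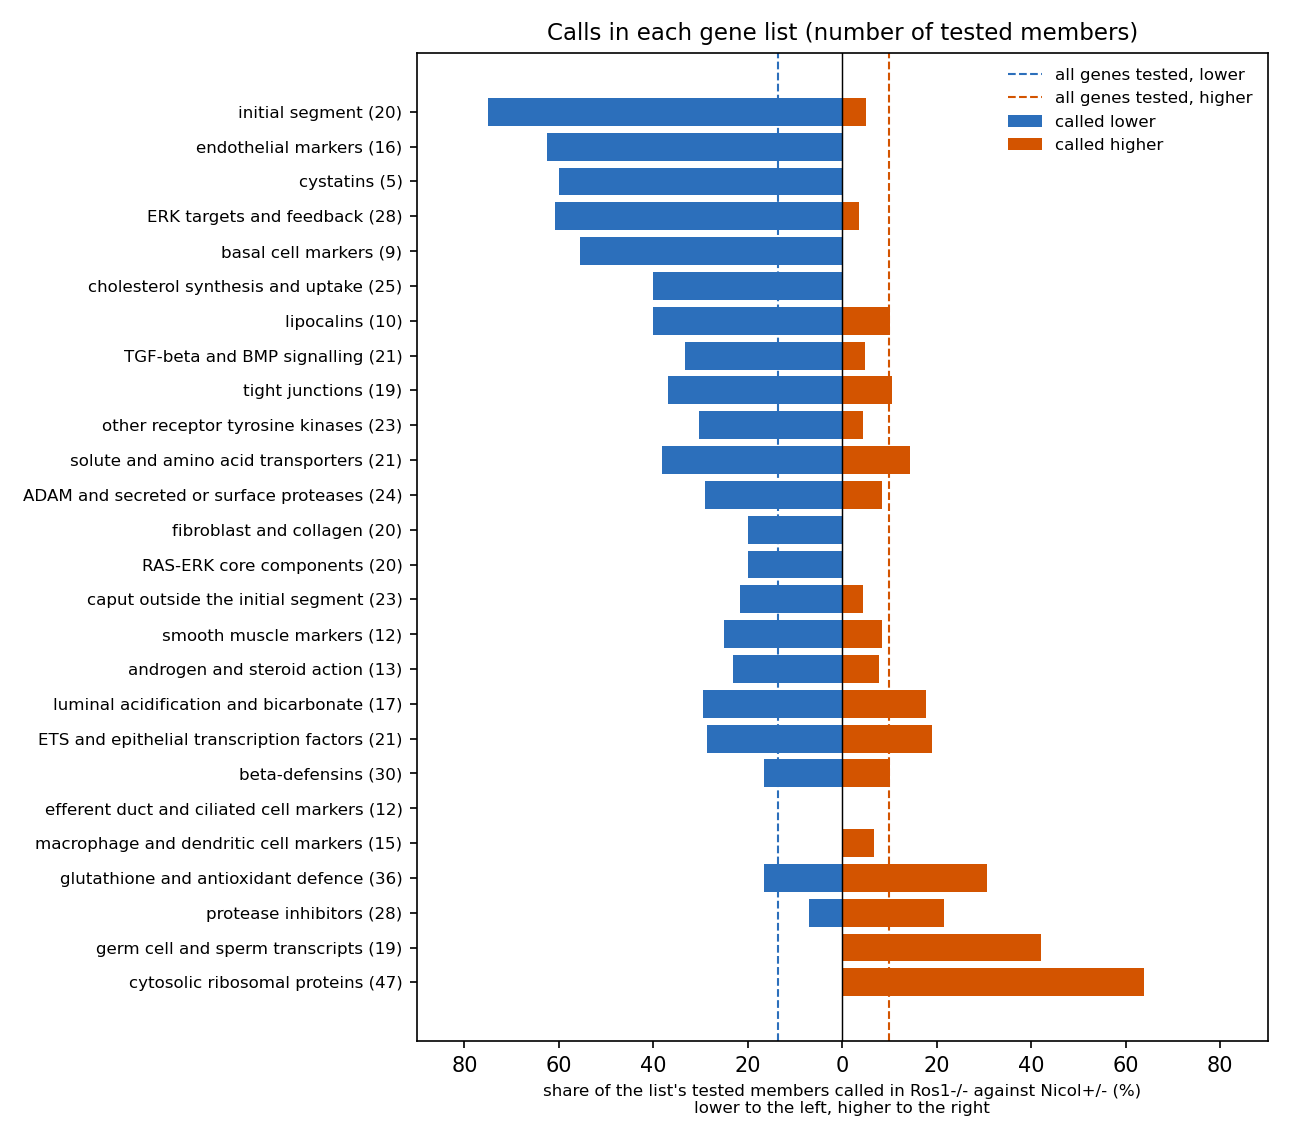
Share of each list's tested members called lower (to the left) or higher (to the right) in Ros1-/- against Nicol+/- (x axis, %), with the number of tested members after each name. Dashed lines mark the shares over all genes tested, 13.7% lower and 9.93% higher; the initial segment reaches farthest to the left and the cytosolic ribosomal proteins farthest to the right.

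The plot of calls in each list also holds the ribosomal proteins. All 47 listed were tested, 30 were called higher and 0 lower by limma, and the median change was 0.43. Rpl32 measured 1434, 1776 and 1278 RPKM in the controls and 2633, 2501 and 2298 RPKM in Ros1-/-, a rise of 0.74 ± 0.15 (limma adjusted p = 0.00898). Rpl14 rose by 0.55 ± 0.12. Sizes were small and the count of calls depended on single libraries. It was 12 without Nicol+/- replicate 1, 6 without Nicol+/- replicate 3, and 2, 10 and 13 without Ros1-/- replicates 1, 2 and 3. The Rn45s share of the libraries, given above, differed between the same groups.

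The rises were smaller than the falls and several rested on few reads or on RNAs that a poly(A) selection should remove. Gcnt1, a glycosyltransferase of mucin-type glycans, measured 8.51, 1.19 and 0.51 RPKM in the controls and 25.2, 28.2 and 20.7 RPKM in Ros1-/-. Its call depended on Nicol+/- replicates 2 and 3 and on each Ros1-/- replicate, being lost when any 1 of these was left out. Ly6d, a surface protein of epithelial and lymphoid cells, rose more evenly, from 6.6, 11.1 and 13.1 RPKM to 55, 48.2 and 48.1 RPKM, by 2.24 ± 0.31 (limma adjusted p = 0.00108). The channel gene Pkd2l1 rose from 2.17, 1.12 and 3.42 RPKM to 15, 11.1 and 17.3 RPKM. Ppy, the pancreatic polypeptide precursor, rose from 51.3, 53.3 and 58.6 RPKM to 206, 149.7 and 365 RPKM, and 5730457N03Rik from 0.992, 0.586 and 0.408 RPKM to 7.82, 8.23 and 7.91 RPKM. These last 4 kept their calls without any 1 library. For 5730457N03Rik the filter fixed the direction and was not redone in those fits, so its kept call gives no support.

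Low reads stood behind others. S100z was listed at 0, 0 and 5.79 RPKM in the controls and 21.6, 21.9 and 8.15 RPKM in Ros1-/-, which are 0, 0 and 8 reads against 30, 30 and 8. Snhg9 rested on 0, 0 and 1 read against 4, 1 and 4. Both calls were lost without Nicol+/- replicate 1 or 2 and without Ros1-/- replicate 1 or 3, and that of S100z also without Ros1-/- replicate 2.

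Among RNAs without a poly(A) tail 8 of 15 in the table were tested, 3 were called higher and 0 lower by limma. Rn45s measured 906, 1185 and 592 RPKM against 4699.8, 6356 and 17294 RPKM. Rpph1, the RNA of RNase P, measured 5.18, 4.88 and 1.15 RPKM against 32.7, 22.7 and 107 RPKM. Rmrp rose by 1.73 ± 0.44 on 4, 2 and 2 reads against 9, 11 and 15, and its call was lost on leaving out replicate 2 or 3 of the controls or replicate 3 of Ros1-/-. All 3 were highest in Ros1-/- replicate 3. So was Lars2, a mitochondrial leucyl-tRNA synthetase, which measured 673, 886 and 592 RPKM against 2590.1, 3143 and 5494 RPKM and rose by 2.33 ± 0.38. The part of the unequal ribosomal RNA in the rise of Lars2 was not tested.

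Markers of the other cell types in the tissue were summed in each library. In bulk tissue, fewer cells of a type and less RNA per cell cannot be told apart. Endothelial markers were the clearest, with 10 of 16 tested members called lower and 0 higher by limma. Their summed level ranged from 140.1 to 188 RPKM in Nicol+/- and from 97.7 to 102 RPKM in Ros1-/-. Plvap, which forms the diaphragms of fenestrated capillaries, changed most, from 28.1, 36.6 and 43.9 RPKM to 3.41, 3.27 and 3.14 RPKM, a log2 change of -3.10 ± 0.16 (limma adjusted p = 1.92e-06). The general markers Pecam1 and Tie1 fell by 0.82 ± 0.12 and 0.91 ± 0.11, and Emcn (endomucin) by 1.20 ± 0.18. Cdh5 (VE-cadherin) fell by 0.44 ± 0.12, a call lost in 5 of the 9 fits that left out 1 library. Among the called members Plvap thus had the largest fall, and it made up a large part of the gap between the sums. The median change of the list was -0.52.

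Smooth muscle markers summed to 1607 to 1776 RPKM in the controls against 465 to 507 RPKM in Ros1-/-, and Actg2 made up nearly the whole gap. Actg2, the gamma smooth muscle actin, measured 1037, 1084 and 1329 RPKM against 26.6, 25.2 and 32 RPKM, a log2 change of -5.31 ± 0.12 (limma adjusted p = 1.24e-08). The defining genes of the same muscle showed no such change. Acta2 measured 254, 206 and 164 RPKM against 176, 178 and 169 RPKM (limma adjusted p = 0.265), Myh11 differed by -0.20 ± 0.16 and Tagln by -0.09 ± 0.10. Of 12 members tested, 3 were called lower and 1 higher. Mylk and Smtn were called lower, by 0.66 ± 0.11 and 0.50 ± 0.12, the latter not without Ros1-/- replicate 1 or 3, and Synm rose by 0.73 ± 0.11.

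Basal cell markers had 5 of 9 tested members called lower and 0 higher by limma. Krt17 fell from 5.39, 5.69 and 4.35 RPKM to 0.747, 0.706 and 0.775 RPKM, and Itga6 by 1.13 ± 0.13. The defining keratin Krt5 measured 53.9, 54.0 and 54.8 RPKM against 59.3, 57.9 and 38.6 RPKM and was not called. Trp63, the basal cell transcription factor, fell by 0.56 ± 0.15, and its call was lost without any 1 library of either group, as was that of another member, so that the count fell to 3. Fibroblast and collagen genes had 4 of 20 called lower and 0 higher by limma, with sums of 444 to 619 RPKM against 384 to 472 RPKM. The share called lower over all genes was 13.7%. Fn1 (fibronectin) fell from 12.5, 7.46 and 8.14 RPKM to 1.86, 2.06 and 2.85 RPKM, and the basement membrane collagens Col4a1 and Col4a2 by 0.75 ± 0.17 and 0.73 ± 0.15. Uchl1, listed as a nerve marker, fell by 1.93 ± 0.24.

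Macrophage and dendritic cell markers were mostly not called, while some transcripts of germ cells were called higher. The macrophage and dendritic cell list had 1 of 15 called higher, Aif1, against 9.93% of all genes. Its summed levels overlapped, at 295 to 388 RPKM against 365 to 399 RPKM. The Aif1 call was lost without Nicol+/- replicate 3 or Ros1-/- replicate 1. No neutrophil marker of 9 in the table reached the filter. Transcripts of germ cells and sperm had 8 of 19 tested members called higher and 0 lower by limma, and summed to 201 to 288 RPKM in Nicol+/- and to 444 to 999.5 RPKM in Ros1-/-. Tnp1, a transition protein of condensing spermatids, measured 19.8, 12.4 and 9.81 RPKM against 33.9, 38.3 and 58.3 RPKM. Prm1 (protamine) measured 29.5, 23.3 and 21 RPKM against 55.7, 53.2 and 125 RPKM, highest in Ros1-/- replicate 3. The number called was 5 without Nicol+/- replicate 1, 4 without replicate 2 and 2 without replicate 3, and it was 4, 4 and 3 without Ros1-/- replicates 1, 2 and 3. Efferent duct and ciliated cell markers had 0 of 12 called by limma, and 5 of them lay without overlap above the controls, against 22.5% of all genes. The part of these other cell types in the changes of the duct was not tested.

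**Figure D4:**
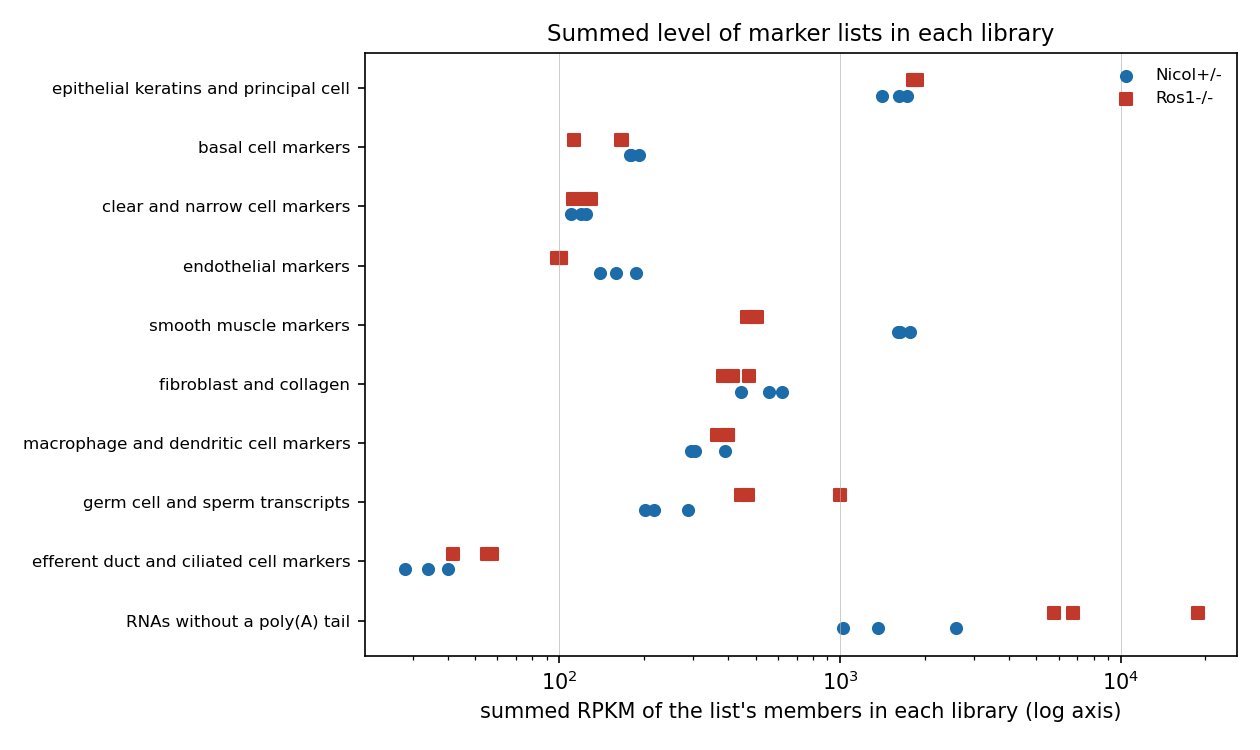
Summed RPKM of the members of each marker list (x axis, log scale) in the 3 Nicol+/- libraries (circles) and the 3 Ros1-/- libraries (squares). The endothelial sums lie at 140.1 to 188 against 97.7 to 102 RPKM and the germ cell sums at 201 to 288 against 444 to 999.5 RPKM; the gap of the smooth muscle sums is that of Actg2.

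In the plot of summed marker levels, the lists that do not overlap between the genotypes are those of endothelium, smooth muscle, basal cells, germ cells, efferent ducts, keratins and principal cells, and RNAs without a poly(A) tail. Keratins and principal cell genes were higher in sum, at 1414 to 1732 RPKM against 1813 to 1886 RPKM, with 2 called lower and 5 higher of 13 tested. Their median change was -0.03, so the members did not rise as a group. Krt19 and Elf3 together covered the gap between the group means of the sums. The higher count was 3 without Nicol+/- replicate 3 or Ros1-/- replicate 1 or 3. Krt19 rose from 129, 190.0 and 166 RPKM to 306, 282 and 332 RPKM. Pax8 fell by 0.63 ± 0.09.

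The Nicol-/- libraries come from the line of the controls, and the direct comparison of the 2 knockouts does not use the controls' levels. At a limma adjusted p under 0.05, 161 of the 13250 genes were lower in Ros1-/- than in Nicol-/- (1.22%) and 58 higher (0.438%). Among the 3134 genes called against Nicol+/-, 113 differed between the knockouts. Both comparisons share the Ros1-/- libraries, and the count of 113 became 70 without Nicol+/- replicate 2, 22, 59 and 179 without Nicol-/- replicates 1, 2 and 3, and 9, 14 and 49 without Ros1-/- replicates 1, 2 and 3.

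Genes nearly lost in Ros1-/- were also far below the controls in Nicol-/-, at levels that varied between its libraries. Lcn8 measured 5.09, 2.99 and 9.41 RPKM in Nicol-/-, a difference between the knockouts of -0.23 ± 0.32, and Adam28 measured 0.0564, 0.029 and 0.083 RPKM, a difference of 0.06 ± 0.17. Lcn9 was listed at 0.17, 0.35 and 23.8 RPKM in Nicol-/- against 0 in every Ros1-/- library. Rnase10 measured 8.66, 7.91 and 57.5 RPKM in Nicol-/-, above its values in Ros1-/-, with a log2 difference of -2.76 ± 0.63 (limma adjusted p = 0.0628). Defb25 measured 40.6, 31.4 and 362.5 RPKM and 9230104L09Rik 13.9, 40.4 and 152 RPKM in Nicol-/-. Nicol-/- replicate 3 was the highest library of its group for Lcn9, Rnase10, Defb25 and 9230104L09Rik.

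Etv1 was lower in Ros1-/- than in Nicol-/-, where it measured 6.64, 4.7 and 4.62 RPKM, by 0.90 ± 0.16 (limma adjusted p = 0.0296). Etv4 and Etv5 differed between the knockouts by 0.02 ± 0.17 and -0.81 ± 0.21 and did not pass the test. The Etv1 call was lost on leaving out replicate 1 or 2 of Nicol-/- or any replicate of Ros1-/-. Enpp2 was lower as well, at 3.33, 3.3 and 3.21 RPKM against 8.13, 6.76 and 6.95 RPKM in Nicol-/-, a difference of -0.95 ± 0.11 (limma adjusted p = 0.00902) that was not called without Ros1-/- replicate 1 or 2.

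The genes with the smallest p between the knockouts were of another kind. Alad, an enzyme of haem synthesis, measured 164, 193 and 151 RPKM in Nicol+/-, 209, 219 and 245 RPKM in Nicol-/-, but 66.1, 66.8 and 67.8 RPKM in Ros1-/-. It was lower in Ros1-/- than in Nicol-/- by 1.73 ± 0.10 (log2, limma adjusted p = 0.000162). Hdhd3, which lies next to Alad on chromosome 4 (chr4:62499054-62502200), measured 38.4, 44.2 and 41.9 RPKM, 41.5, 40.6 and 42.6 RPKM, and 12.3, 15.8 and 14.2 RPKM in the same order. Alad was also higher in Nicol-/- than in Nicol+/-, by 0.41 ± 0.10 (limma adjusted p = 0.0217), while for Hdhd3 that difference was 0.01 ± 0.09. For both genes the 3 Ros1-/- libraries lay below all 6 libraries of the Nicol line.

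Ccnd2 (cyclin D2) was at 5.85, 5.15 and 4.97 RPKM in Nicol+/-, 9, 7.01 and 8.07 RPKM in Nicol-/-, but 3.06, 2.92 and 3.04 RPKM in Ros1-/-, so that it was lower in Ros1-/- and higher in Nicol-/- than in the controls (by 0.51 ± 0.10 for the latter, limma adjusted p = 0.00946). Cdca7l was at 6.27, 6.31 and 8.01 RPKM, 5.62, 4.46 and 6.41 RPKM, and 1.02, 1.2 and 1.6 RPKM in the same order, and its difference of -0.28 ± 0.15 between the groups of the Nicol line did not pass the test. Elf5 was higher in Ros1-/- than in Nicol-/-, where it measured 3.34, 3.06 and 3.24 RPKM, by 1.65 ± 0.15. Mzt1, a component of the gamma-tubulin ring complex, measured 34.1, 34 and 29.6 RPKM in Ros1-/- and 12.5, 12.2 and 9.54 RPKM in Nicol-/-. Tac2, the neurokinin B precursor, was listed at 0 in all 6 libraries of the Nicol line and at 2.08, 1.82 and 3.52 RPKM in Ros1-/-, on 15, 13 and 18 reads. The calls of Alad, Hdhd3, Ccnd2, Cdca7l, Elf5, Mzt1 and Tac2 between the knockouts held without any 1 of the 9 libraries. Tac2 passed the filter through its Ros1-/- libraries alone, and the filter was not redone in those fits. Its call therefore gives no support beyond its levels.

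**Figure D5:**
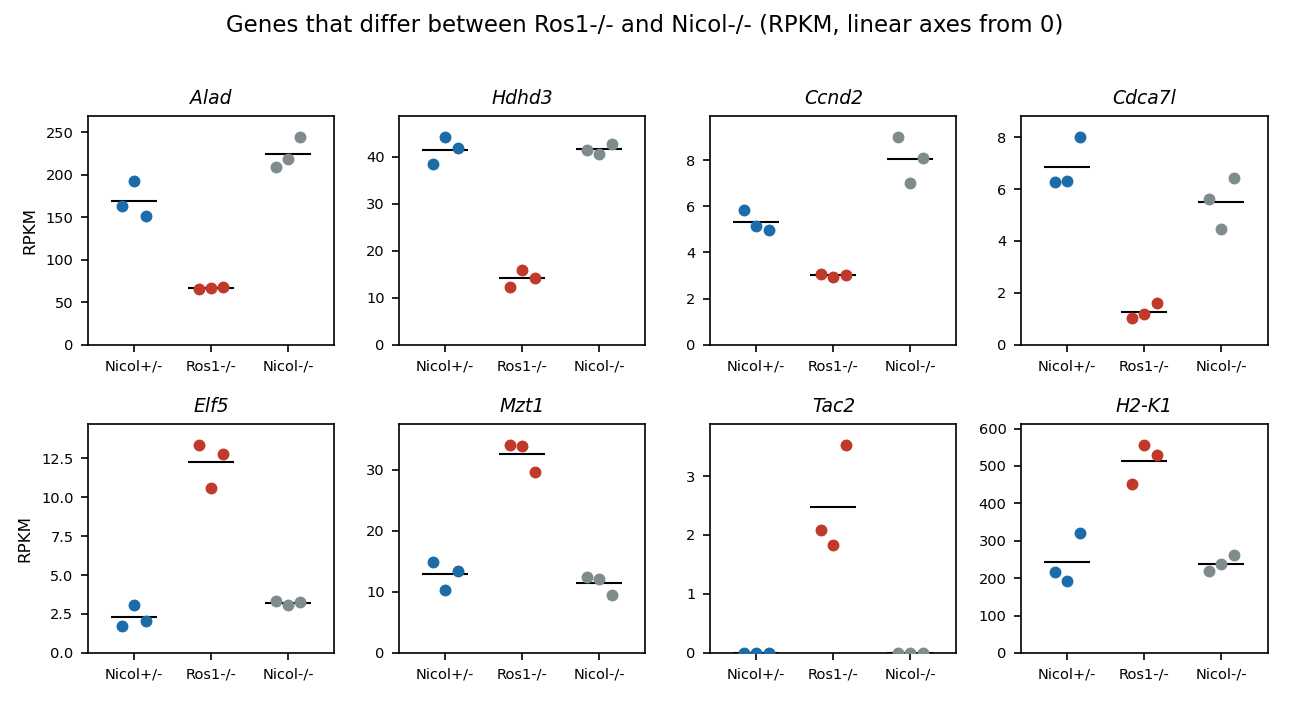
RPKM of 8 genes in each library (y axes, RPKM, from 0) for Nicol+/-, Ros1-/- and Nicol-/- (3 libraries each), with points for libraries and a line at the mean. In each panel the Ros1-/- libraries stand apart from both groups of the Nicol line, as with Alad at 66.1 to 67.8 RPKM against 151 RPKM or more.

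The plot of genes that differ between the knockouts includes H2-K1, a class I histocompatibility gene, at 217, 191 and 321 RPKM in Nicol+/-, 218, 238 and 261 RPKM in Nicol-/-, but 452, 556 and 529 RPKM in Ros1-/-. It was higher in Ros1-/- than in Nicol-/- by 1.09 ± 0.18 (limma adjusted p = 0.0244), a call lost without Nicol-/- replicate 1 or 2 or any 1 Ros1-/- replicate. H2-D1 rose by 0.93 ± 0.15 against Nicol+/-, and these were the 2 called of 11 histocompatibility genes tested. H2-Ea-ps is transcribed in DBA/2 mice and silent in C57BL/6 mice, the parents of B6D2F1. It was listed at 9.02, 10.8 and 0 RPKM in Nicol+/-, at 11.6, 14.4 and 15.9 RPKM in Nicol-/- and at 0 in all 3 Ros1-/- libraries, and did not reach the filter of the comparison. Alad lies in a segment that is duplicated in DBA/2 mice. Strain and genotype cannot be told apart for these genes, since the Ros1-/- line has no control of its own.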

How the data were processed

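mRNA of caput epididymis was sequenced by the authors with a stranded TruSeq kit (single-ended, 101 bases). Per the labels, reads were aligned to mm10 with TopHat2 2.1.1 and quantified with Cufflinks 2.2.1; no source used here gives the annotation or the handling of multiply mapped reads and of strand. The deposited table holds normalized FPKM per gene, which equals RPKM for single-ended reads, and a normalized count, a signal divided by a library factor. The authors' fold-change and p-value columns were not used.

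Genes with at least 1 RPKM in 3 of the 6 libraries were fitted on log2(RPKM + 1) with limma 3.58.1 (R 4.3.3, mean-variance trend) over all 9 libraries (6 residual degrees of freedom). Adjusted p-values are Benjamini-Hochberg over 13250 genes, called under 0.05. Fold changes understate low genes. The fit was tested on simulated data with 200 changed genes: 80 of 89 changed by 1 (log2) and 111 of 111 changed by 2 were recovered, and 6 of 13050 unchanged genes were called. The simulated noise was independent and normal with the variances of the fit itself, and genes of low level were not among those changed. The simulation thus checks the code and does not measure error rates in these data. With 3 against 3 libraries an exact permutation test cannot go below p = 0.1, so none is given for single genes. Low normalized counts were whole multiples of a step (within 0.02) for 98.4% to 98.7% of values per library, which gave estimated reads. Of the gene IDs, 99.6% matched RefSeq (GRCm38.p6), which gave positions and promoters.

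Named genes were the edited genes and those the study names, the 12 largest falls and 12 largest rises among called genes with a mean of at least 5 RPKM and no overlap, up to 4 called members per direction of each list with its defining members, the 4 smallest p per direction between the knockouts, the 6 most abundant control genes and up to 4 called neighbours of each edited gene. The members and lists were chosen with earlier results of these data known. Tulp2, Kif1a, Dusp1, Dusp2 and Il17rd were chosen after their values were seen. Some genes the rule names are not reported here.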

Additional observations from a re-analysis of the deposited data

Results flagged for a closer look

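For 20 of the named genes the change in Ros1-/- differed from that in Nicol-/-, by the limma test of the difference between the 2 knockouts. Values are log2 differences, Ros1-/- minus Nicol-/-, on log2(RPKM + 1).

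In 8 genes the call held without any 1 of the 9 libraries. Gm1673, deleted in Nicol-/-, differed by 4.22 and is a check of the labels. Alad and its neighbour Hdhd3 differed by -1.73 and -1.50, Ccnd2 by -1.17 and Cdca7l by -1.51. Elf5 differed by 1.65, Mzt1 by 1.44 and Tac2 by 1.77. The call of Tac2, which passed the filter through Ros1-/- libraries alone, gives no support beyond its levels.

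In 3 genes the call was lost without Ros1-/- replicate 1 or 2. These were Ros1, which differed by -1.14 and is the gene targeted in one of the knockouts, Enpp2 at -0.95 and Hgfac at -1.97.

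In the other 9 genes the call was lost in 4 to 7 of the 9 fits without 1 library, among them those without Ros1-/- replicate 1 or 2. Smtn differed by -0.77, Actg2 by -0.69, Etv1 by -0.90, Pdgfra by -0.65 and Inhbb by -0.73. H2-K1 differed by 1.09 and Defb19 by 2.72. Acta2 differed by -0.96 and Tagln by -0.64, and neither was called against Nicol+/-. Of 12 smooth muscle markers tested, 6 were called lower in Ros1-/- than in Nicol-/-, against 1.22% of all genes. In Nicol-/- against Nicol+/-, 7 of these markers were called higher and 1 lower, with a median of 0.50. Acta2 and Tagln were higher there by 0.73 and 0.55.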

How the results depend on the processing

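Of 139 named genes called, 115 kept their call under each of the 23 alternatives that tested them, and 0 reversed. Some, such as Spdef and Tac2, did not reach 5 RPKM in 3 of the 6 libraries and were untested under that filter. At an adjusted p under 0.01 in place of 0.05, 973 genes were lower, 420 higher, and 14 of these genes also differed between the knockouts (113 at 0.05). Leaving out 1 library at a time gave 1118 to 2161 lower, 583 to 1757 higher, of which 9 to 179 also differed between the knockouts. Quantile normalization gave 1588 lower and 1700 higher, against 1818 and 1316, so that 48.3% of calls were lower in place of 58%. Fits on the deposited normalized counts gave 1910 and 1377.

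Some genes that were not called changed sign. Gpx5 became 0.00 under quantile normalization and ranged from -0.26 to 0.061 without 1 library, where it turned positive without Nicol+/- replicate 2 (0.026) or 3 and without Ros1-/- replicate 2. Ptpn6 ranged from -0.0336 to 0.13 (negative without Nicol+/- replicate 3, -0.017, or Ros1-/- replicate 2) and Krt5 from -0.19 to 0.11 (positive without Ros1-/- replicate 3).

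The replicate numbers did not pair the libraries: deviations of same-numbered libraries correlated at -0.07, -0.04 and 0.08. A replicate block gave 1711 lower, 1381 higher, of which 131 also differed between the knockouts, and 1726 and 1425 in the 6 libraries alone. Without the block those 6 gave 2025 and 1631; fits without Nicol-/- give no count between the knockouts. The causes were not tested. Depth limits genes with few reads, and RPKM without a spike-in cannot show a change of total RNA.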
